A study of Mus musculus with 15 samples.

Results

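Hox genes encode homeodomain transcription factors that lie in 4 clusters on different chromosomes. They were taken here as all gene symbols made of Hox, a cluster letter and a paralog number, which gave 39 of the 45777 symbols in each count table, and 38 of the 39 enter the counts, sums and lists below. Polyadenylated RNA from mouse brain had been sequenced in 15 strand-specific libraries, 3 in each of 5 groups, and the values are read counts per gene. The high-dose group had been given MPTP, a toxin of dopamine neurons, at 20 mg/kg/day for 1 week and then a BTK inhibitor at 2 µg/kg/day for 4 weeks, and the low-dose group MPTP and then the inhibitor at 1 µg/kg/day for 4 weeks. The levodopa group had been given MPTP and then the dopamine precursor levodopa at 2 mg/kg/day for 4 weeks, the MPTP group the toxin alone, and the control group a normal diet without toxin or drug. Every treated group thus shared the toxin. The labels also give the inhibitor doses as 25 and 50 pM, and the route of levodopa differs between the labels. No brain region is named for the tissue, and all samples are labelled 6 weeks. The sources used here name 8 mice per group but neither their strain nor the animal behind each library. Totals were 58149722 to 61998459 reads for the libraries of inhibitor-treated mice, 6 in number, and 63314658 to 68257095 for the 9 without inhibitor, so read counts are set side by side below, and levels are given as CPM, the read count scaled to a common library total.

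In the embryo, Hox genes are switched on in the order in which they lie in their clusters. Genes of low paralog number reach forward into the hindbrain, and those of high number stay in the trunk and tail. Paralogs are genes of equal number in different clusters that descend from 1 ancestor. Adult neurons of the pons, medulla and spinal cord keep part of this pattern, whereas forebrain, midbrain and cerebellum are regions in which Hox genes are known to be largely silent. Promoters are shown here for 3 genes whose reads were spread differently over the libraries: Hoxa2, with reads in levodopa 1, levodopa 2 and control 2, Hoxa3, with reads in control 2, and Hoxd1, with reads in 13 of 15 libraries. Each runs from 250 bases before to 50 after the start in RefSeq (GRCm38.p6), on the gene's strand; capitals mark a match to TGATNNAT, a core that PBX and Hox proteins bind together, searched on both strands.
Hoxa2, chr6:52164782-52165081, minus strand: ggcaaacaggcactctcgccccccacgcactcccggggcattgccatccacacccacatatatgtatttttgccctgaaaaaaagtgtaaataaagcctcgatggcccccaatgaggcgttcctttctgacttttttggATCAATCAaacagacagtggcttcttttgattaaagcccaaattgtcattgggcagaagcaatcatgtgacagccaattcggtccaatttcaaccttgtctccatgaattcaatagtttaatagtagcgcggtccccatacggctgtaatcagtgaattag
Hoxa3, chr6:52213018-52213317, minus strand: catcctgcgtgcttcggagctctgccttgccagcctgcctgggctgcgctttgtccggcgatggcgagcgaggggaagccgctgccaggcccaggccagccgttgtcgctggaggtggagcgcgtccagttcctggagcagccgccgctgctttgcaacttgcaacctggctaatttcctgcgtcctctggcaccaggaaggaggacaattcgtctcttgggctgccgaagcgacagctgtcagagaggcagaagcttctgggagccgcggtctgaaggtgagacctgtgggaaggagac
Hoxd1, chr2:74762730-74763029, plus strand: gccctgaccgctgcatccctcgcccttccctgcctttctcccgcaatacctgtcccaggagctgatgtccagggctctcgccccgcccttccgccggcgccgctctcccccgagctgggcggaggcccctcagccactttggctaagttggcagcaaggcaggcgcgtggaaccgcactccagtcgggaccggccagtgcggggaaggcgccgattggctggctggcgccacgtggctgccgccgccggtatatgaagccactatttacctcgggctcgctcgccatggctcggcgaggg
The window of Hoxa2 held 1 match to TGATNNAT and those of Hoxa3 and Hoxd1 held 0, while 8.85% of 32851 promoters of this length hold one. None of the 3 held TATAAA on either strand, which 13.6% of all promoters hold. The windows had 9 CG pairs in Hoxa2, 20 in Hoxa3 and 29 in Hoxd1. The median was 14.5 over the 24 promoters of the 22 matched Hox genes, against 7 over all promoters. Over whole annotated transcripts of paralog group 3, the longest identical run was 47 bases between Hoxb3 and Hoxd3, 33 between Hoxa3 and Hoxb3, and 32 between Hoxa3 and Hoxd3. Such runs were not confined to group 3. Among pairs of described genes that do not overlap in the genome, the longest was 52 bases, between Hoxa6 and Hoxb4. Hoxd1 shared 32 with Hoxd9. The sources used here do not say how reads matching several genes were counted, so values of all these genes are uncertain to that extent.

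Hox RNA was close to absent in these brains. The 38 genes together took 427 reads over the 15 libraries, a level of 0.446 CPM. Reads were found for 18 genes in at least 1 library, and 20 genes had 0 reads in all 15, which allows a level of up to 0.00313 CPM over all libraries together. Of the 570 values, 1 per gene and library, 493 were 0, 13 were 10 reads or more, and the highest was 32. A count of 1 occurred 1 time and a count of 2 occurred 21 times. In the whole tables, too, symbols at 2 reads (887 to 1023 per library) outnumbered symbols at 1 read (691 to 799), and the sources used here do not say whether both mates of a pair were counted. The Poisson and binomial intervals below cover counting error only and may therefore be too narrow.

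The HoxD cluster (chr2:74668310-74765142 of GRCm38) gave 197 reads, with 5 of 9 genes detected, and the HoxB cluster (chr11:96194316-96368256) gave 119 reads, with 6 of 10 genes detected. In the HoxA cluster (10 genes described, chr6:52162417-52260880), 5 genes gave 80 reads. The HoxC cluster (chr15:102921103-103036852) gave 31 reads, with 2 of 9 genes detected; it is also the cluster that lacks genes of paralog numbers 1 to 3 in the mouse.

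Summed over the 38 genes, the high-dose libraries 1, 2 and 3 had 18, 11 and 25 reads, and the low-dose libraries 6, 18 and 4. The levodopa libraries had 59, 36 and 9 reads, the MPTP libraries 12, 10 and 30, and the control libraries 16, 130 and 43. Control 2 stood above all others, with 130 reads (95% exact Poisson interval 109 to 154), ahead of levodopa 1 with 59 (44.9 to 76.1) and control 3 with 43 (31.1 to 57.9). Control 2 held 6.62% of all reads and 30.4% of the Hox reads (Clopper-Pearson 95% interval 26.1% to 35.1%). It also had reads for 13 Hox genes, against 10 in levodopa 1, 9 in control 3, 8 in levodopa 2 and 1 to 7 in the other 11 libraries.

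**Figure D1:**
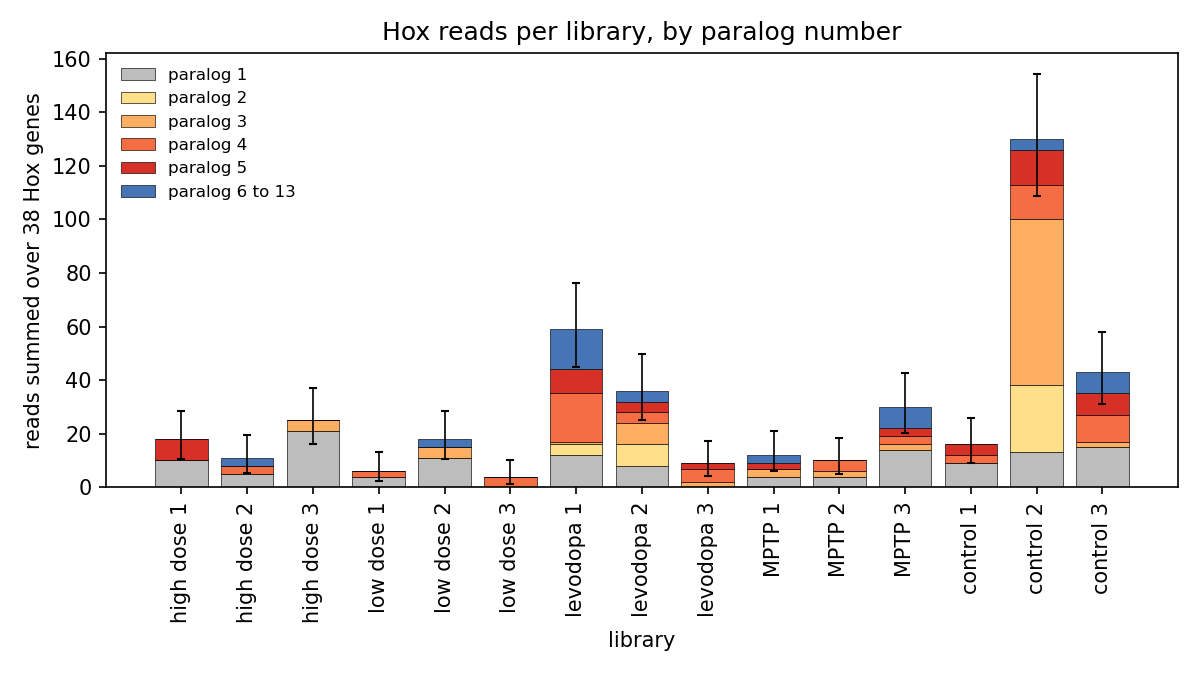
Summed Hox reads in each of the 15 libraries, as stacked bars coloured by paralog number, with groups from high dose at the left to control at the right; error bars are 95% exact Poisson intervals of the whole sum. Control 2 reaches 130 reads, mostly of paralog numbers 2 to 5, while paralog 1 reads (Hoxd1) appear in every library except low dose 3 and levodopa 3.

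By paralog number, over the genes described, group 1 had 130 reads, which is 30.4% of the 427. Group 2 had 37 reads (8.67%), group 3 had 90 (21.1%), group 4 had 69 (16.2%) and group 5 had 53 (12.4%). Groups 6 and 7 had 2 and 3 reads, group 8 had 14, groups 9 to 12 had none, and group 13 had 29. Reads therefore thinned out after paralog number 5, with a small return at number 13. The sets of numbers 2 to 5 and 6 to 13 used below were formed after these sums had been seen, so they describe the data and are not tested.

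The group 1 reads given here are those of Hoxd1, and Hoxb1, a gene of hindbrain segments, had 0 reads in every library. Hoxd1 (chr2:74762980-74765142, plus strand), known in the mouse from work on sensory neurons, had the largest sum of the genes described. It had 10, 5 and 21 reads in the high-dose libraries, 4, 11 and 0 in the low-dose, 12, 8 and 0 in the levodopa, 4, 4 and 14 in the MPTP, and 9, 13 and 15 in the control libraries. Hoxd1 was seen in 13 of 15 libraries, and the groups overlapped throughout. It did not stand out in control 2, which held 13 of its 130 reads, with an interval of 5.43% to 16.5% that takes in the 6.62% of all reads. High dose 3 had the most Hoxd1 reads, 21 out of its 25 Hox reads, against 13 out of 130 in control 2. Low dose 3 had 4 reads of Hoxb4 and no other read of the genes described.

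Paralog groups 2 and 3 lay mostly in 1 library. Of the 37 reads of group 2, control 2 held 25 (67.6%, interval 50.2% to 82.0%), levodopa 2 held 8 and levodopa 1 held 4. No other library had any. Of the 90 reads of group 3, control 2 held 62 (68.9%, 58.3% to 78.2%) and levodopa 2 held 8, while no other library had more than 4. Groups 4 and 5 were spread more widely, with 18.8% and 24.5% of their reads in control 2, and levodopa 1 had the most group 4 reads, 18 against 13 in control 2.

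Hoxa3 (chr6:52169062-52213336, minus strand), needed in the mouse for neck glands and lower cranial nerves, had 32 reads in control 2 and 0 in the other 14 libraries. Hoxd3 (chr2:74711927-74748442, plus strand), which shapes the first neck vertebrae, had 15 reads in control 2, and 2 in high dose 3, 2 in low dose 2, 1 in levodopa 1, 2 in levodopa 2 and 0 elsewhere. Hoxb3 (chr11:96323326-96347930, plus strand), a gene of posterior hindbrain segments, had 0, 0 and 2 reads in the high-dose and 0, 2 and 0 in the low-dose libraries, with 0, 6 and 2 in the levodopa, 3, 2 and 2 in the MPTP and 0, 15 and 2 in the control libraries. All 3 paralogs were highest in control 2, and for Hoxa3 the next library was at 0. On the same strand, Hoxd3 shares 2225 exon bases with the annotated transcript Gm28230 and 388 with Hoxd4, and Hoxa3 shares 482 with Gm28308. On the opposite strand, Hoxa3 shares 503 with Hoxaas2, which also peaked in control 2, at 16 reads against 0 to 6 in the other 14 libraries. Reads may have been exchanged between these genes.

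Hoxb2 (chr11:96350525-96354012, plus strand), which acts in hindbrain segments that give rise to facial motor neurons, had 6 reads in levodopa 2 and 16 in control 2, and 0 in the other 13 libraries. Hoxa2, the neighbour of Hoxa3 and the Hox gene expressed farthest forward in the embryonic hindbrain, had 4 reads in levodopa 1, 2 in levodopa 2 and 9 in control 2. Both group 2 genes thus had 0 reads in all 6 inhibitor libraries and all 3 MPTP libraries, which allows each a level of up to 0.0516 CPM in a library (3 reads). The antisense RNA Hoxb3os, which overlaps Hoxb3 over 2250 and Hoxb2 over 953 exon bases, was itself counted at 3 reads in levodopa 1 and 21 in control 2 and at 0 elsewhere, so reads of these genes and of Hoxb3os may have been exchanged.

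Hoxb4 (chr11:96318267-96321638, plus strand), known in the hindbrain and in blood stem cells, had 0, 3 and 0 reads in the high-dose, 2, 0 and 4 in the low-dose, 4, 0 and 2 in the levodopa, 0, 4 and 3 in the MPTP and 3, 3 and 4 in the control libraries. No library stood apart for Hoxb4. Hoxc5 (chr15:102967443-103017429, plus strand) had 0 reads in all 6 inhibitor libraries, 4, 0 and 2 in the levodopa, 2, 0 and 3 in the MPTP and 4, 0 and 8 in the control libraries, so it was missing from control 2. On the same strand, Hoxc5 shares 166 exon bases with Hoxc10, which had 0 reads in every library. Among the 12 genes of paralog numbers 2 to 5, 11 had reads in control 2 and Hoxc5 was the exception. In control 2, 8 of the 12 had their highest count.

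The other genes of numbers 4 and 5 had sums of 8 to 21 reads. Hoxa4 had 12 reads in levodopa 1, and 3 each in levodopa 3, control 2 and control 3. Hoxb5 had 6 reads in high dose 1, 2 in levodopa 1, 4 in levodopa 2 and 9 in control 2. Hoxa5, Hoxc4 and Hoxd4 reached at most 5 reads in any library.

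Of the 24 genes numbered 6 to 13, which mark trunk and limb levels, 5 had reads, 48 in all. Hoxd13 (chr2:74668310-74671599, plus strand), a gene of digits and the genital tract, made up 23 of these. It had 15, 4 and 0 reads in the levodopa libraries, 0, 0 and 2 in the MPTP libraries and 0, 0 and 2 in the controls, and none in the inhibitor libraries. Hoxd8 had 3 reads in high dose 2, 3 in MPTP 3, and 4 each in controls 2 and 3. Hoxb13, Hoxa7 and Hoxb6 had 6, 3 and 2 reads in all.

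**Figure D2:**
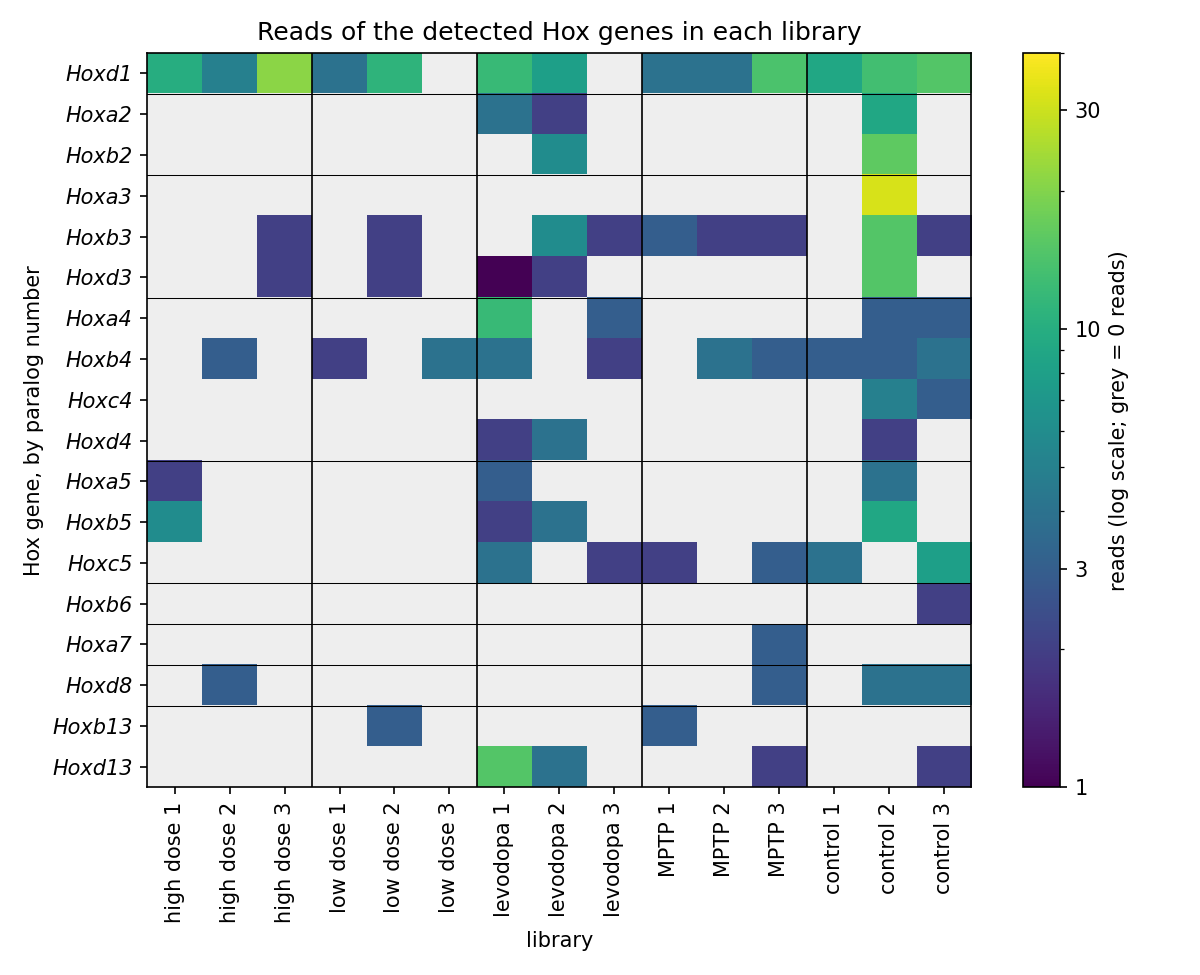
Reads of the 18 detected Hox genes (rows) in the 15 libraries (columns, from high dose at the left to control at the right), on a logarithmic colour scale with 0 in grey. Hoxd1 is filled in nearly every column, whereas the column of control 2 is the one filled almost without gaps for the genes numbered 2 to 5, with 32 reads of Hoxa3 as its brightest field.

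Summed over paralog numbers 2 to 5, the high-dose libraries had 8, 3 and 4 reads, the low-dose libraries 2, 4 and 4, the levodopa libraries 32, 24 and 9, the MPTP libraries 5, 6 and 8, and the controls 7, 113 and 20. Control 2 had 113 of the 249 reads (45.4%), and levodopa 1, levodopa 2 and control 3 came next. The remaining 11 libraries had 2 to 9 reads.

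Scaled by exon length and library total (RPKM, CPM per kilobase of exon), the order of levels between genes differed between libraries. In control 2 the highest levels were those of Hoxd1 at 0.110 RPKM, Hoxa3 at 0.0840, Hoxa2 at 0.0801 and Hoxb2 at 0.0725, followed by Hoxd3 at 0.0565, Hoxb3 at 0.0557 and Hoxb5 at 0.0510. In the 13 libraries other than levodopa 2 and control 2, pooled, Hoxd1 had 0.0706 RPKM, and the next of the genes described, Hoxb4 and Hoxa4, had 0.0136 each. The level of Hoxd1 was thus near those of groups 2 and 3 in control 2 and stood above those of the other genes described in the pool of 13. In levodopa 2 Hoxd1 had 0.0667 RPKM, Hoxb2 0.0267 and Hoxa3 0. Each of these levels rests on 32 reads or fewer per library.

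**Figure D3:**
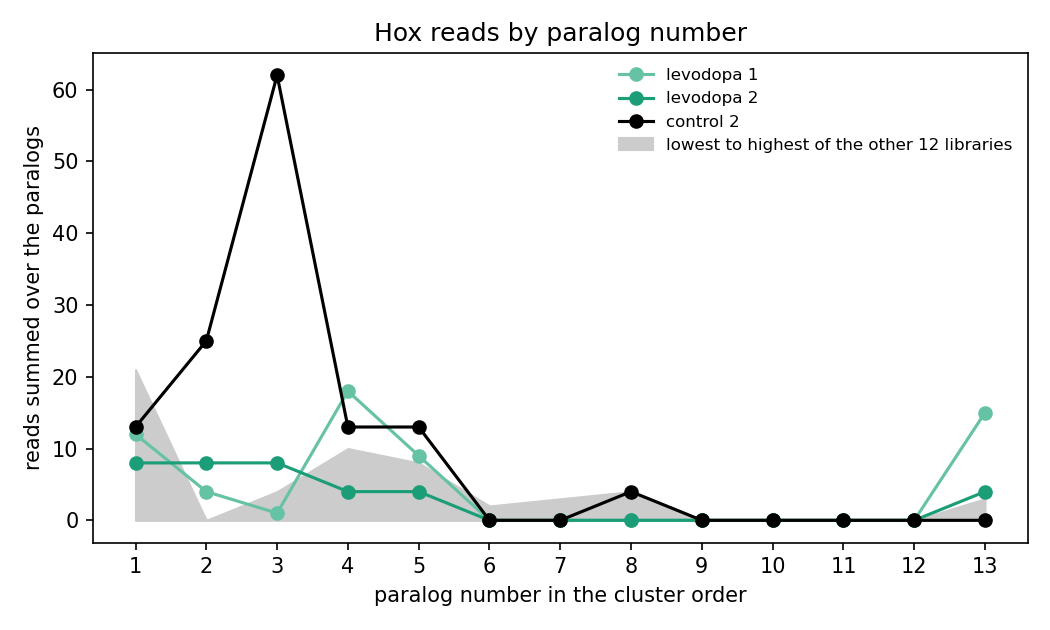
Summed Hox reads against paralog number for levodopa 1, levodopa 2 and control 2 (lines), with the range of the other 12 libraries as a grey band. The line of control 2 leaves the band at paralog numbers 2 to 5, farthest at number 3 with 62 reads, and lies within it at number 1, with 13 reads.

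Beside the Hox reads, regional tissue was described by marker lists of 7 brainstem, 5 serotonin and noradrenaline, 7 cerebellum, 3 midbrain-hindbrain boundary, 7 forebrain and 6 choroid plexus genes. Of the 7 brainstem genes, 3 had their highest count in control 2, as the Hox sum of numbers 2 to 5 did, and 4 did not. Tlx3, a transcription factor of dorsal hindbrain and cord neurons, had 332 reads in control 2 and 0 to 6 in the other 14 libraries. Lbx1, another, had 223 reads in levodopa 2, 310 in control 2 and 0 to 6 elsewhere. Slc6a5, the glycine transporter of inhibitory neurons in brainstem, cord and cerebellum, had 1198 reads in levodopa 1, 2384 in levodopa 2 and 3367 in control 2, with 6 to 689 in the other 12. The forebrain list, of transcription factors such as Tbr1, Emx1 and Six3, had its lowest sum of the 15 libraries in control 2, 8.97 CPM.

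The cerebellum, a hindbrain region that lies outside the Hox territory, was strongly represented in the same library and in levodopa 2. The cerebellar list summed to 4966 CPM in levodopa 2 and 5907 CPM in control 2, against 20.0 to 69.1 CPM in the other 13. Gabra6, the granule cell receptor subunit, had 34516 reads in levodopa 2 and 39519 in control 2. Hox reads of numbers 2 to 5 did not keep pace, at 24 in levodopa 2 and 113 in control 2, and Tlx3 had 3 reads in levodopa 2 and 332 in control 2. Hoxa3 had 0 reads in levodopa 2 and 32 in control 2. The libraries with similar cerebellar marker sums thus had unlike Hox and Tlx3 counts.

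Serotonin and noradrenaline markers were highest in libraries other than control 2. Of these brainstem cell groups, those of serotonin are not confined to the pons and medulla. Tph2, the serotonin synthesis enzyme, had 7484 reads in levodopa 1, 4427 in MPTP 3 and 3048 in control 3, against 25 to 609 in the other 12, with 25 in control 2. Slc6a2, the noradrenaline transporter, had 137 reads in levodopa 1, 296 in levodopa 2, 218 in control 3 and 0 to 13 in the others. Dbh, a noradrenaline synthesis enzyme, was high in the same libraries. It had 122 reads in levodopa 1, 240 in levodopa 2, 199 in control 3 and 0 to 21 in the others. Hox sums of numbers 2 to 5 in the libraries named for Tph2, Slc6a2 and Dbh were 32 in levodopa 1, 24 in levodopa 2, 8 in MPTP 3 and 20 in control 3. Levodopa 1, levodopa 2 and control 3, high in Slc6a2 and Dbh, thus came next after control 2. MPTP 3, second in Tph2 only to levodopa 1, therefore lay within the 2 to 9 reads of the 11 libraries with the fewest. En1, which marks the border of midbrain and hindbrain, had 860 reads in MPTP 3, 713 in levodopa 1, 635 in control 3 and 4 in control 2. En2, which cerebellar granule cells also express, ran the other way, with 6418 reads in levodopa 2 and 6502 in control 2, against 66 to 769 in the other 13. The summed boundary list (En1, En2 and Pax5) was highest in levodopa 2 and control 2, at 109 and 107 CPM.

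Other genes of the brainstem list were not high in control 2. Prph, an intermediate filament gene of motor and sensory neurons, had 20 reads there, the lowest of the 15 libraries, and 69 in levodopa 2, against 43 to 466 in the other 13. Glra1, a glycine receptor subunit, had 107 reads in both levodopa 2 and control 2, fewer than in the other levodopa, MPTP and control libraries (378 to 739). Phox2a, of noradrenaline and visceral motor neurons, had 0 reads in control 2 and at most 12 elsewhere (levodopa 2), and the motor neuron gene Mnx1 had 0 in every library. The brainstem list as a whole summed to 3.11, 5.27 and 6.87 CPM in the high-dose, 0.962, 4.497 and 2.61 in the low-dose, 33.1, 45.0 and 15.02 in the levodopa, 11.9, 15.3 and 25.8 in the MPTP and 7.18, 67.9 and 25.9 in the control libraries. In levodopa 2 and control 2 most of this sum was Slc6a5, which cerebellum also expresses, with 2384 and 3367 reads. The next gene of the list had 223 reads in levodopa 2 (Lbx1) and 332 in control 2 (Tlx3). The 2 sums are therefore no measure of brainstem tissue alone. In bulk tissue, fewer cells of a type and less RNA per cell cannot be told apart.

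The 6 inhibitor libraries had few Hox reads of numbers 2 to 5 and low brainstem marker sums. Their Hox sums of numbers 2 to 5 were 2 to 8 reads, against 5 to 113 in the other 9 libraries. Their Tph2 counts were 27 to 286 reads, against 25 to 7484, so both ranges overlapped. Their brainstem list sums were 0.962 to 6.87 CPM, against 7.18 (control 1) to 67.9 CPM. The forebrain list summed to 97.1 to 290 CPM in these 6, against 8.97 to 74.5 CPM in the other 9 libraries. The choroid plexus list summed to 293 to 1471 CPM in the 6 and 926 CPM in control 3, against 10.97 to 118 CPM in the other 8. Most of the sum in the 6 and in control 3 was 1 gene, Ttr. Hoxd1 was present in 5 of the 6 inhibitor libraries all the same. Slc6a3, the dopamine transporter of midbrain neurons, had 55, 1216 and 4637 reads in the high-dose and 36, 2900 and 77 in the low-dose libraries. Hoxd1 was thus also read in libraries with high forebrain and low brainstem marker sums; which cells hold it was not tested.

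**Figure D4:**
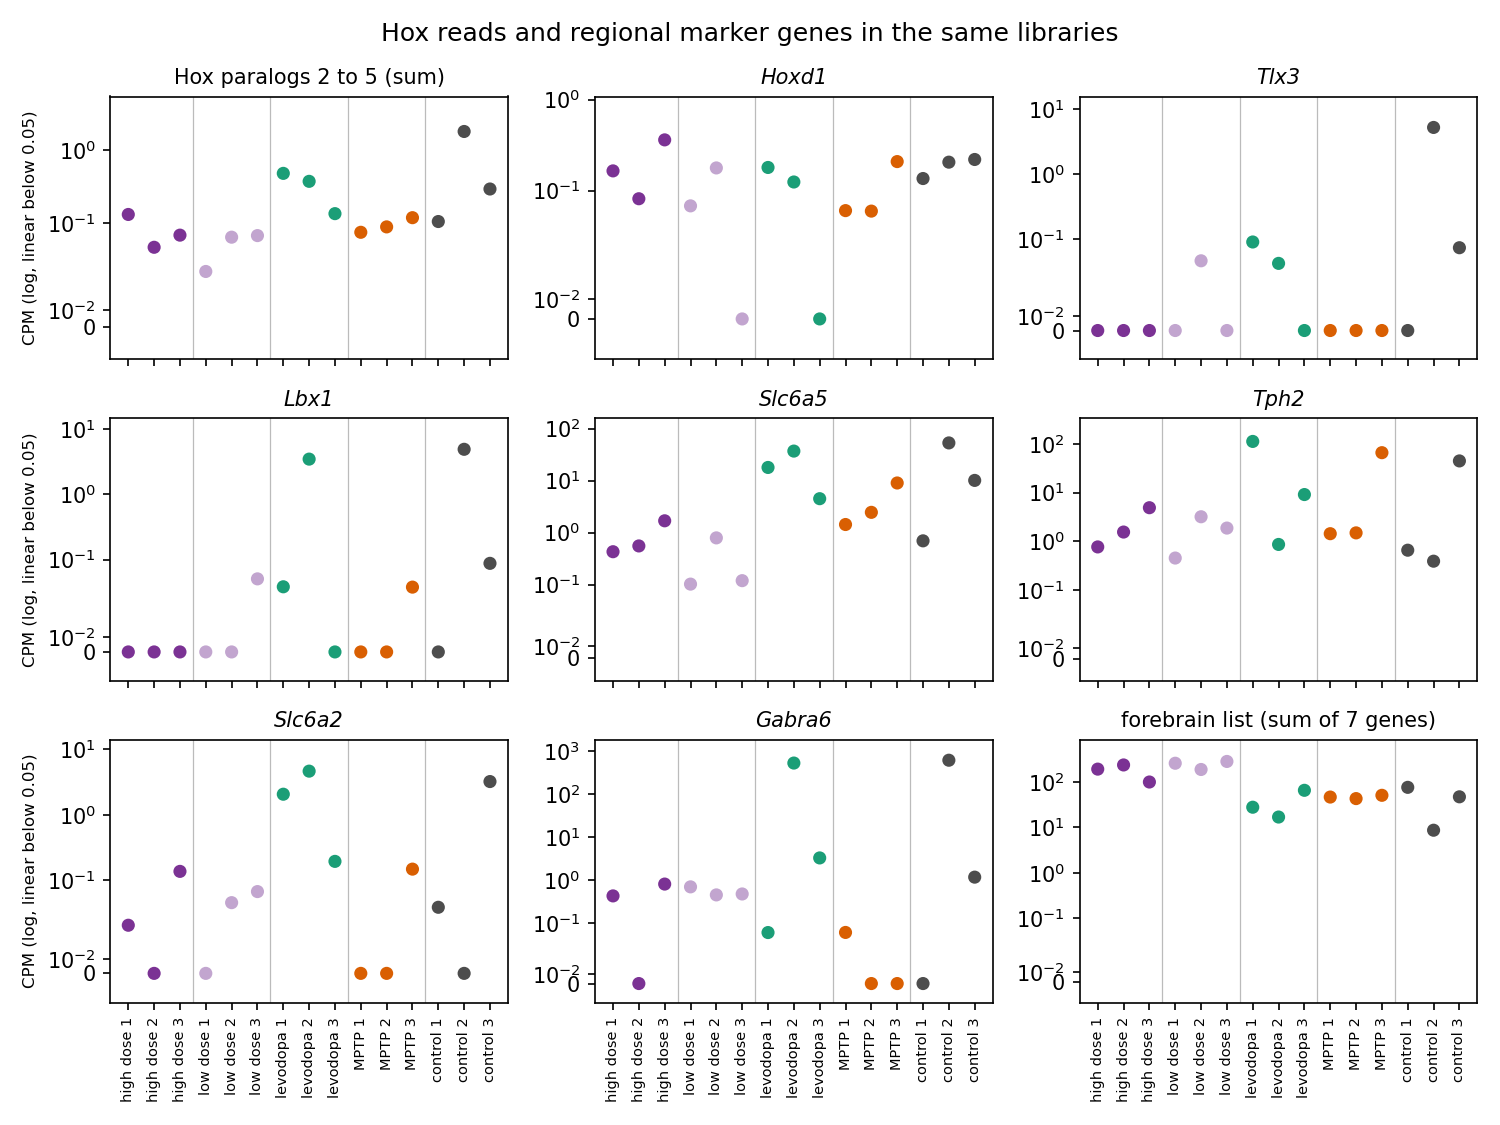
Levels in each library, in CPM of the library total on an axis that is linear below 0.05 and logarithmic above, for the Hox sum of paralog numbers 2 to 5, Hoxd1, 6 regional marker genes and the forebrain list; groups run from high dose at the left to control at the right. Control 2 is the high point for Hox numbers 2 to 5, Tlx3 and Lbx1, levodopa 2 joins it for Lbx1, Slc6a5 and Gabra6, and levodopa 1, MPTP 3 and control 3 are the high points for Tph2.

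Genes at the edges of the clusters peaked outside control 2. Evx1 and Evx2, homeobox genes beside the high-numbered ends of the HoxA and HoxD clusters, were highest in MPTP 3, with 93 and 159 reads. Evx2 had 0, 10 and 3 reads in the high-dose, 0, 7 and 0 in the low-dose, 88, 61 and 84 in the levodopa, 12, 17 and 159 in the MPTP and 4, 44 and 106 in the control libraries. Its counts in all 6 inhibitor libraries lay below those of the 3 MPTP libraries. Evx1 was at 57, 30 and 29 reads in the levodopa, 2, 6 and 93 in the MPTP and 0, 6 and 56 in the control libraries. Of the 17 listed noncoding RNAs and neighbours found in the tables, 10 had 0 reads throughout.

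The treatment comparisons asked whether Hox levels differed between groups. After the filter on low counts, 21821 genes were tested with edgeR's quasi-likelihood test, and Hoxd1 was the 1 Hox gene described here among them. It did not pass an adjusted p of 0.05 in any of 5 comparisons, had no unadjusted p under 0.05 and was not called by DESeq2. Over all genes, 1.97% were called in high dose against MPTP, 8.53% in low dose against MPTP, and 0% in levodopa against MPTP, in MPTP against control and in high against low dose. By direction these were 1.08% higher and 0.884% lower for the high dose, and 4.78% higher and 3.75% lower for the low dose. The standard errors for Hoxd1, 1.06 to 1.11 on the log2 scale, set how large a change could have been seen.

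The log2 fold change of Hoxd1 was 0.87 (SE 1.06, edgeR adjusted p = 0.727) for high dose against MPTP and −0.38 (SE 1.11, edgeR adjusted p = 0.868) for low dose against MPTP. For levodopa against MPTP it was −0.09 (SE 1.09, edgeR adjusted p = 0.993), and for MPTP against control −0.80 (SE 1.06, edgeR adjusted p = 0.819). For high against low dose it was 1.25 (SE 1.09, edgeR adjusted p = 1). In each comparison the libraries of the compared groups overlapped. The direction for low dose and for levodopa against MPTP turned without MPTP 3, which had 14 of the 22 MPTP reads, to 0.50 and 0.78. It also turned for low dose without low dose 3, to 0.19, and for levodopa without levodopa 3, to 0.51. Both of these libraries had 0 Hoxd1 reads.

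Without the filter, 18 Hox genes could be fitted and none was called. Below an unadjusted p of 0.05 lay Hoxa4 in levodopa against MPTP (edgeR adjusted p = 0.920) and Hoxd3 in MPTP against control (edgeR adjusted p = 0.746). Hoxa4 had 12, 0 and 3 reads in the levodopa libraries and 0 in all MPTP libraries, and Hoxd3 had 0 reads in all MPTP libraries and 0, 15 and 0 in the controls, so the difference in Hoxd3 was that of control 2 alone.

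As group levels, the sum over the 38 genes was 0.299 ± 0.119 CPM in the high-dose, 0.155 ± 0.120 in the low-dose, 0.525 ± 0.370 in the levodopa, 0.256 ± 0.165 in the MPTP and 1.00 ± 0.9998 CPM in the control group (SD, n = 3 each, TMM-scaled). The control mean rested on 1 library and was 0.438 CPM without control 2. For numbers 2 to 5 the mean was 0.0826 ± 0.0423 CPM in the high-dose, 0.0563 ± 0.0197 in the low-dose, 0.329 ± 0.176 in the levodopa, 0.0933 ± 0.0233 in the MPTP and 0.752 ± 0.960 in the control group. For Hoxd1 it was 0.200 ± 0.139 CPM in the high-dose, 0.0820 ± 0.0902 in the low-dose, 0.102 ± 0.0911 in the levodopa, 0.108 ± 0.0863 in the MPTP and 0.190 ± 0.0490 in the control group. In controls the SD of numbers 2 to 5 exceeded the mean, whereas that of Hoxd1 did not.

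Of the genes that work with Hox proteins, all 9 listed PBX, MEIS and PKNOX cofactors were tested, and 1 was called, in low dose against MPTP, where 8.53% of all genes were called; a count of 1 in 9 is near that background. Pknox2, a TALE homeodomain partner, rose in low dose against MPTP, with 2986, 1997 and 2494 reads in the low-dose and 1507, 1692 and 1584 in the MPTP libraries, and the log2 fold change was 0.85 (SE 0.17, adjusted p = 0.0137 by edgeR). Its adjusted p was 0.0561 without MPTP 3 and 0.0504 without low dose 3. Marker lists of other tissue moved in the same comparison. The forebrain list summed to 255, 188 and 290 CPM in the low-dose and 45.0, 42.2 and 50.5 CPM in the MPTP libraries, with 4 of 7 genes called higher by edgeR. The choroid plexus list, of genes of the epithelium that secretes cerebrospinal fluid, summed to 899, 1408 and 1324 CPM in the low-dose and 20.4, 22.8 and 11.4 CPM in the MPTP libraries, with 3 of 6 genes called higher. Most of the low-dose sum was Ttr, at a mean of 1149 CPM against 3.59 CPM in MPTP. Log2 fold changes within the list ran from 1.32 for Clic6, which was not called, to 8.32 for Ttr. The part of either tissue in the result was not tested. Meis1, a cofactor also expressed by cerebellar granule cells, had 3228 reads in levodopa 2 and 3351 in control 2, against 277 to 742 in the other 13, and its log2 fold change for MPTP against control was −1.54 (edgeR adjusted p = 0.717). Pknox1 was likewise highest in levodopa 2 and control 2, at 1485 and 1495 reads. The median log2 fold change of the 9 cofactors was 0.01 in low dose against MPTP.

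Of 17 listed regulators of Hox genes, 14 were tested and 1 was called, again in low dose against MPTP, where a count of 1 in 14 is near the 8.53% of all genes. Egr2, a factor of hindbrain segments that is also an activity-induced gene in adult neurons, rose in low dose against MPTP, with 682, 438 and 722 reads in the low-dose and 6, 21 and 24 in the MPTP libraries (log2 fold change 5.37, SE 1.44, edgeR adjusted p = 0.0393). The call was lost when any 1 of these 6 libraries was left out, at adjusted p of 0.0582 to 0.132. The forebrain and choroid plexus sums given for Pknox2 moved with it, and their part was not tested. Egr2 had 259, 821 and 576 reads in the high-dose libraries, with a log2 fold change of 5.19 against MPTP (SE 1.43, edgeR adjusted p = 0.0806) and of −0.18 for high against low dose (SE 1.16, edgeR adjusted p = 1). It had 4, 13 and 131 reads in the levodopa and 500, 13 and 30 in the control libraries, so control 1 lay within the range of the inhibitor libraries. Rarb, a retinoic acid receptor, had a log2 fold change of 2.17 in the same comparison (edgeR adjusted p = 0.0513), and the median of the 14 regulators was 0.16. Rnf2, a Polycomb subunit, had 0.53 in high dose against MPTP (edgeR adjusted p = 0.163). Of the 4 tested cluster neighbours and noncoding RNAs, none was called. The smallest p was that of Evx2 in low dose against MPTP (log2 fold change −4.51, edgeR adjusted p = 0.0853). Evx2 had 0, 7 and 0 reads in the low-dose and 12, 17 and 159 in the MPTP libraries, so the size of this change rested largely on MPTP 3. Evx1 had 2, 2 and 0 reads in the low-dose and 2, 6 and 93 in the MPTP libraries, so its log2 fold change of −4.37 (edgeR adjusted p = 0.138) rested on MPTP 3. In the same comparison the brainstem marker Glra1 fell by 4.26 on the log2 scale (edgeR adjusted p = 0.0191, and up to 0.0763 without 1 library).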

How the data were processed

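Messenger RNA of 15 mouse brain libraries (TruSeq Stranded mRNA, 5 groups of 3) was analysed from the deposited tables of whole-number read counts per gene symbol, which the authors had not normalized. HISAT2 2.1.0, StringTie 2.1.3b, Trimmomatic and bcl2fastq 2.20.0 are named, with the GRCm38/mm10 genome, per the submitters' processing notes. The sources used here give neither the annotation, nor the strand setting, nor the handling of shared reads. Groups and replicate numbers came from the labels, which do not tie each library to its own mouse; p-values thus measure the spread between these samples only, and this may be technical. Totals were 58149722 to 68257095 reads, and 3 reads correspond to at most 0.0516 CPM. Libraries of a group all differed beyond sampling noise (chi-square per degree of freedom 29.3 to 468).

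All genes were fitted with edgeR 4.0.16 (R 4.3.3, limma 3.58.1) by the quasi-likelihood test with TMM scaling and filterByExpr at minimum count 10. There was 1 fit of 15 libraries, with Benjamini-Hochberg adjustment at 0.05. A check on simulated data came first. It used the same spread for all genes and changed only genes above a mean of 1 CPM. The check therefore did not cover levels as low as that of Hoxd1. Alternatives were RLE and upper-quartile scaling, DESeq2 1.42.0, no filter, 1 CPM in 3 libraries, only the compared groups, a replicate block, each library left out, and control 2 with levodopa 2 left out. Sums of reads carry exact Poisson intervals and shares Clopper-Pearson intervals, both at 95%. Gene coordinates, exon lengths (union of annotated exons), overlaps and transcripts came from GENCODE M21 (GRCm38); promoters came from RefSeq GRCm38.p6.

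The members and lists were chosen with earlier results of these data known. Values in every library are given for the 8 Hox genes with the largest sums, and other Hox genes appear as ranges and counts or with their nonzero values. Of the other lists, regional markers and, among cofactors, regulators and cluster neighbours, called genes and those among the 3 with the smallest p were named; genes of the cluster list that overlap a Hox gene were named for that overlap. Results for some genes, including 1 Hox gene, are not reported here.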

Additional observations from a re-analysis of the deposited data

How the results depend on the processing

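None of the Hox genes described was called under any alternative that tested one. The filter of 1 CPM in 3 libraries left 0 Hox genes, and fits of only the 2 groups compared left 0 in 3 of the 5 comparisons (1 in high dose against MPTP and in MPTP against control). The summed Hox level over only the genes passing the filter was 0.102 CPM for levodopa (0.525 with all), and without Hoxd1 it was 0.0993 CPM for high dose (0.299 with all). With each library left out, the sum ran from 0.238 to 0.357 CPM for high dose, 0.0856 to 0.197 for low dose, 0.355 to 0.722 for levodopa, 0.161 to 0.311 for MPTP and 0.438 to 1.39 for control. Signs of uncalled fold changes (log2) turned with libraries left out: Hoxd1 ran from −1.61 to 0.50 in low dose against MPTP and from −0.74 to 0.78 in levodopa against MPTP. Same-numbered libraries did not all correlate above 0.1 in any comparison (0.103, 0.0194 and 0.0183 for high dose against MPTP), so numbers were not taken as pairs. With the replicate block, 0 Hox genes were called. Calls over all genes were 429 for high dose and 1861 for low dose against MPTP, and became 226 and 1723 with the block, 214 and 1224 without the filter, 3560 and 4253 with only the compared groups, 1742 and 3412 with DESeq2, and 18 to 138 and 421 to 1300 with a library left out. The causes were not tested. Egr2 in low dose against MPTP had an adjusted p of 0.0542 without the filter and 0.0568 with the block. Depth limits all of this: most Hox values are 0 to 4 reads.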
